A study of Homo sapiens with 6 samples.

Results

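The genes described here code for the nuclear-encoded subunits of the 5 oxidative phosphorylation complexes, and were chosen by symbol, with earlier results of these data known. They are the protein-coding genes of the deposited table whose GENCODE 29 symbol begins with NDUFA, NDUFB, NDUFC, NDUFS or NDUFV and a number, is SDHA, SDHB, SDHC or SDHD, begins with UQCR, begins with COX4 to COX8, or begins with ATP5. 83 of the 18278 listed genes fit this description, with 36 in complex I, 4 in complex II, 9 in complex III, 14 in complex IV and 20 in complex V. NDUFA4 and NDUFA4L2 were counted in complex IV, since the NDUFA4 protein, despite its name, is a cytochrome c oxidase subunit. The measurements were polyA RNA sequencing of Toledo cells, an established diffuse large B cell lymphoma line, grown in suspension for 6 days. In 3 samples the medium held 5 uM TP-064, an inhibitor of the arginine methyltransferase CARM1, and in the other 3 it held DMSO, the solvent. Both groups are of 1 cell line, and nothing in the labels tells whether replicates were separate cultures. The p-values thus rest on the spread among 6 samples that may be technical replicates. TP-064 acts on an enzyme's activity, so no transcript checks the labels.

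The respiratory chain sits in the inner mitochondrial membrane. Complexes I and II pass electrons from NADH and succinate to ubiquinone, complex III passes them on to cytochrome c, and complex IV hands them to oxygen. Complexes I, III and IV pump protons as they work, and complex V, the ATP synthase, lets the protons flow back and makes ATP. All but complex II combine subunits from the nuclear genome with a few made inside the mitochondrion. None of the 13 mitochondrially encoded subunits was found among the listed genes, so they were not analysed here. In lymphocytes, as in other cells, the pathway supplies ATP and regenerates the electron carriers that biosynthesis uses.

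The libraries held between 41354131 and 48360867 reads assigned to genes. Values are normalized read counts, in which reads per gene were divided by a size factor for the library. On a principal component analysis the first component (75.0% of the variance) separated the treatments. The second component (11.6%) set TP-064 replicate 3 apart, at -35.2 against 21.3 and 16.8 for the other TP-064 samples and -6.37 to 1.89 for the DMSO samples. In that library the median antisense gene carried 0.704% as many reads as the gene opposite it, against 0.0758% to 0.115% in the other 5 libraries (269 antisense genes), and results are therefore also given without it. All 7 B cell markers examined were listed, with a summed count of 197871 to 214435 in TP-064 samples and 187272 to 192499 in DMSO samples, and none of the 5 T cell markers was. In a bulk sample, fewer cells expressing a gene and less of its RNA per cell cannot be told apart.

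Most respiratory subunit transcripts fell in TP-064 samples. Of the 81 members with a mean count of at least 10, which were the ones tested, 68 were called lower, 1 was called higher and 12 were not called (limma, Benjamini-Hochberg adjusted p under 0.05 over all 16048 genes tested). TP-064 changed much of the transcriptome, so the background was high: 65.1% of all genes tested were called, 33.3% lower and 31.9% higher. Of the tested members 84.0% were called lower, against 39.3% of protein-coding genes, of which 34.3% were called higher and 73.6% in either direction. The falls were small. The median log2 fold change of the members was -0.34, with quartiles of -0.47 and -0.19, where the median of all genes was 0.01. The median member fell by 20.9%, 30 members fell by more than 25%, and 0 changed 2-fold, as 13.1% of all genes did. In 66 members every TP-064 value lay below every DMSO value, a pattern that 35.2% of all genes showed. Without TP-064 replicate 3, 66 members were called lower and 2 higher, with a median of -0.33, where 32.3% of all genes were lower and 31% higher. Leaving out TP-064 replicate 1 gave 3 members called higher, NDUFA10, NDUFB5 and COX7A2L.

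Seen by library, the 81 tested members took up 0.826%, 0.856% and 0.838% of the reads in the TP-064 samples. In the DMSO samples they took up 0.953%, 0.956% and 0.949%. The groups did not overlap, and the 3 TP-064 libraries, including the one that stood apart, gave similar shares. The size of the fall depends on the scaling. When libraries were scaled to their total reads, the median of all genes moved to 0.13, and the members' median was -0.22. With that scaling 57 members were called lower and 8 higher, where 25.8% of all genes were lower and 41.4% higher. With TMM factors 64 members were called lower and 4 higher, where 5099 of all genes were lower and 5436 higher.

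**Figure D1:**
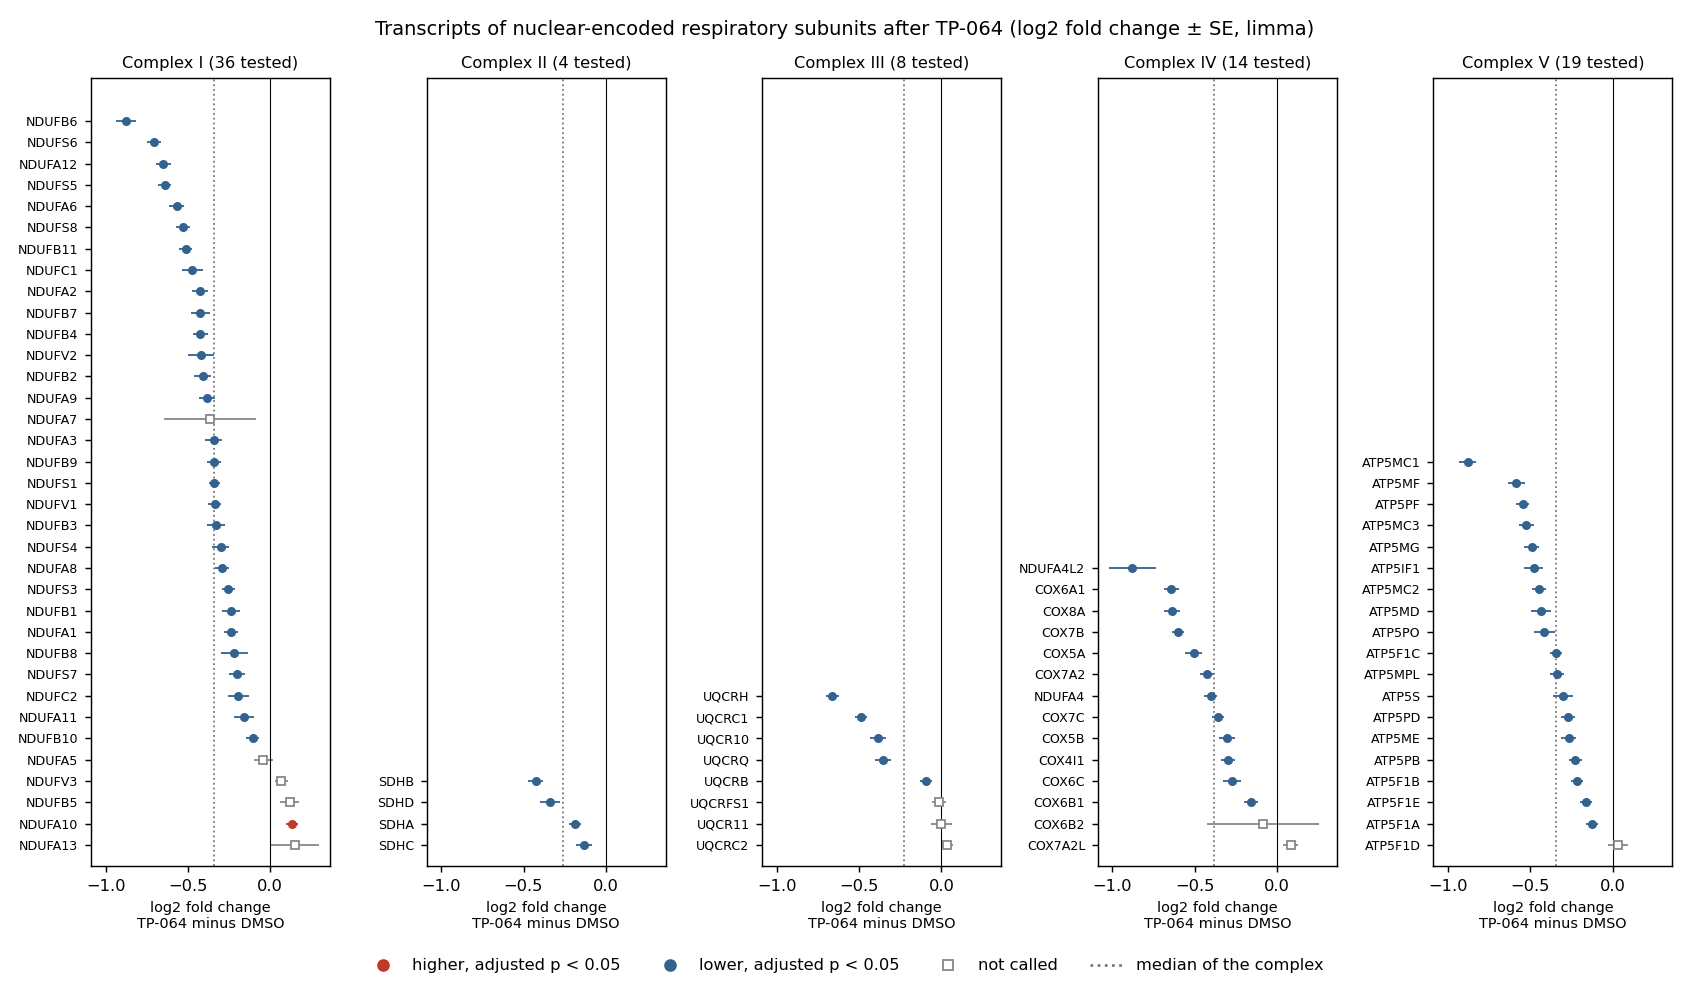
Log2 fold change, TP-064 minus DMSO, of each tested member but 1 of complex I (points, with bars of 1 SE from limma) by complex, with the median of each complex (dotted). In each complex most points lie below 0, and the complex medians run from -0.23 in complex III to -0.38 in complex IV.

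The members differ from the average gene in level and length, both of which varied with the response. Among protein-coding genes split into 5 equal groups by mean count, the median log2 fold change was 0.09, 0.08, -0.01, -0.06 and -0.14 from the lowest to the highest group, and the share called lower was 22.6%, 32.3%, 40.3%, 46.1% and 55.2%. The highest 2 groups held 33 and 25 of the tested members. Split in the same way by exonic length, the group of the shortest genes held 45 members and had a median of -0.11, with 43.1% called lower. In a class chosen after the values were seen, of protein-coding genes with a mean count of at least 1000, at most 3000 exonic bases and no members, 59.5% of 1101 genes were called lower and 22% higher, and the median was -0.20. What part level and length have in the members' fall was not tested.

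**Figure D2:**
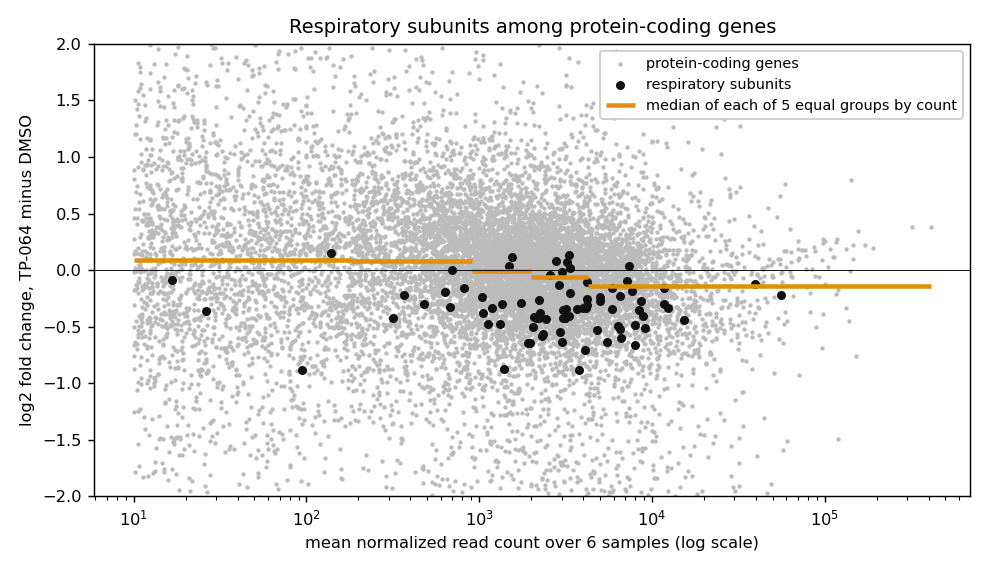
Log2 fold change, TP-064 minus DMSO, against the mean normalized read count over the 6 samples (log scale) for protein-coding genes (grey) and respiratory subunits (black), with the median of each of 5 equal groups of protein-coding genes by count (orange). The fold change axis ends at 2 in each direction and leaves out 255 protein-coding genes. Most black points lie below the orange line at their count.

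Promoters of respiratory genes are known for binding sites of NRF1, of ETS factors such as GABPA, and of YY1. RefSeq promoter windows (GRCh38.p14) of 300 bases, 250 before and 50 after the start site, were on hand for 68 of the 83 members. Letters searched on both strands were GCGCA, any base and GCGC in a row for NRF1, CCGGAAG for ETS factors, AAGATGGC for YY1, CACGTG for the E-box that MYC and USF proteins bind, and TGACGTCA for the CRE that CREB proteins bind. None of the strings contains another. The members' 82 windows held the NRF1 letters in 19.5%, against 7.39% of 22199 windows of protein-coding genes, and the YY1 letters in 15.9%, against 3.53%. For the ETS letters the shares were 26.8% and 12.8%, for the CRE 6.10% and 2.26%, and for the E-box 8.54% and 8.34%. Within the members, the median log2 fold change was -0.34 in those with the NRF1 letters and -0.36 in those without, -0.34 and -0.37 for the ETS letters, and -0.37 and -0.34 for YY1. For the CRE, held by 5 tested members, it was -0.41 with and -0.34 without, and for the E-box, held by 7, it was -0.23 with and -0.36 without. These differences were not tested. The windows below are of 5 members that behaved differently, and are printed so that these letters can be compared between them. UQCRC1 (chr3:48609597-48609896, minus strand) fell and UQCRFS1 (chr19:29213102-29213401, minus strand), in the same complex, was not called, and both hold the NRF1 letters. ATP5MC1 (chr17:48892537-48892836, plus strand) had a log2 fold change of -0.88, level to 2 decimals with NDUFA4L2 and NDUFB6, and NDUFA10 (chr2:240025293-240025592, minus strand) was the member called higher, and both hold the CRE letters. SDHB (chr1:17053983-17054282, minus strand) fell and holds the ETS, YY1 and CRE letters. Capitals mark the matched letters.
UQCRC1: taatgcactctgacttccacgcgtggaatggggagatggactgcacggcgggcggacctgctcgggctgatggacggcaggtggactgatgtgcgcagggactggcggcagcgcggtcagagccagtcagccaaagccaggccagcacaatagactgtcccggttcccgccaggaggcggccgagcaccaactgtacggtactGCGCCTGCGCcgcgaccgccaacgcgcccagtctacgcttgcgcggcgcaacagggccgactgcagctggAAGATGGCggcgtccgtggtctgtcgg
UQCRFS1: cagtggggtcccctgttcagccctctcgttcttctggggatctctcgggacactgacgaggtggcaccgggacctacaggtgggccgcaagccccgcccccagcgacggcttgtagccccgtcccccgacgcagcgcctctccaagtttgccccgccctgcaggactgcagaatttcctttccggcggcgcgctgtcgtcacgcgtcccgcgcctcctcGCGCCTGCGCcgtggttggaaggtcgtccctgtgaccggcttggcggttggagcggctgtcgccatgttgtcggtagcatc
ATP5MC1: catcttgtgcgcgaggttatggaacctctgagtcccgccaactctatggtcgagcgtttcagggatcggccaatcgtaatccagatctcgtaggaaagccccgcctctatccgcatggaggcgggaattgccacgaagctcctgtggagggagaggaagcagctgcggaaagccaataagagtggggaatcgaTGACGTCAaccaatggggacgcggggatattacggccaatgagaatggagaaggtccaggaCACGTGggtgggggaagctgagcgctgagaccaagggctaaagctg
NDUFA10: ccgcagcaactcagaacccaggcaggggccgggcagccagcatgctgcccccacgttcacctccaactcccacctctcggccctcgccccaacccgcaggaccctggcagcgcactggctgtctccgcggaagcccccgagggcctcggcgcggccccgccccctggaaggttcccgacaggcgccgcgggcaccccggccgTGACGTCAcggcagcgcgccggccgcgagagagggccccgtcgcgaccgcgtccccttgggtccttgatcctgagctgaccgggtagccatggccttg
SDHB: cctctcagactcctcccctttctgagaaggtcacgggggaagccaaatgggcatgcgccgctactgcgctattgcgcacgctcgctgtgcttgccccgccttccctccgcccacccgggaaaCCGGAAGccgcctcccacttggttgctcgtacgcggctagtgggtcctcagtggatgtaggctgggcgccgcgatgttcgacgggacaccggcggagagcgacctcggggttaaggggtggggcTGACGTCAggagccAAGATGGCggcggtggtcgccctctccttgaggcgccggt
Counted from the start site as 0, the NRF1 letters begin at -47 in UQCRC1 and -31 in UQCRFS1, and the YY1 letters begin at 23 in UQCRC1. The CRE begins at -57 in ATP5MC1, -48 in NDUFA10 and -4 in SDHB. ATP5MC1 also holds the E-box letters, from 4, and in SDHB the ETS letters begin at -128 and the YY1 letters at 10. A match to these letters is a description of the sequence and does not show that a protein binds there.

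Complex I, the NADH dehydrogenase, is an L-shaped assembly with a matrix arm that takes electrons from NADH and a membrane arm that pumps protons. Of its 36 members 29 were called lower, 1 higher and 6 were not called, with a median log2 fold change of -0.34. NDUFB6, an accessory subunit of the distal membrane arm (chromosome 9, 32552999 to 32573184, minus strand, hg38), counted 905, 1085 and 949 in TP-064 samples and 1807, 1839 and 1732 in DMSO samples. Every TP-064 value was well below every DMSO value, and the mean fell by 45.4% (log2 fold change -0.88, SE 0.06, limma adjusted p = 6.8e-09). NDUFS6, an accessory matrix arm subunit that carries a zinc ion, counted 3067, 3279 and 3015 in TP-064 samples and 5031, 5299 and 4924 in DMSO samples. The groups were again far apart (log2 fold change -0.70, SE 0.04, adjusted p = 1.15e-09). NDUFA12, an accessory subunit of the matrix arm, counted 1474, 1565 and 1593 in TP-064 samples and 2342, 2511 and 2407 in DMSO samples, with a log2 fold change of -0.65 (adjusted p = 6.48e-09). NDUFS5 of the proximal membrane arm, the complex I member with the highest count per exonic length (7840 per kb in TP-064 samples and 12213 per kb in DMSO samples), had a log2 fold change of -0.64.

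The 4 core subunits of the matrix arm described here were called lower, by unequal amounts. NDUFS8, which holds 2 of the iron-sulphur clusters on the electron path, had 3884, 4223 and 3763 counts in TP-064 samples and 5651, 5561 and 5916 in DMSO samples (log2 fold change -0.53). NDUFV1, which binds NADH and FMN, had 10659, 11552 and 10569 counts in TP-064 samples and 13510, 14061 and 13845 in DMSO samples, and NDUFS1, the large iron-sulphur subunit, had the same log2 fold change of -0.34. NDUFS7, which holds the last cluster before ubiquinone, had a log2 fold change of -0.20. In these 4 genes every TP-064 value lay below every DMSO value. By position, 12 of 16 matrix arm members, 7 of 9 proximal membrane arm members and 10 of 11 distal membrane arm members were called lower, with medians of -0.35, -0.24 and -0.34.

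NDUFA10, an accessory subunit of the proximal membrane arm, was the member called higher. It counted 3384, 3490 and 3486 in TP-064 samples and 3116, 3194 and 3149 in DMSO samples. Every TP-064 value was above every DMSO value, which 33.9% of all genes showed, but the difference was small (log2 fold change 0.13, SE 0.04, limma adjusted p = 0.0044) and was not called against a null of a 1.2-fold change. NDUFB5, a distal membrane arm subunit, counted 1474, 1740 and 1603 in TP-064 samples and 1513, 1467 and 1450 in DMSO samples, with overlapping groups (log2 fold change 0.12, adjusted p = 0.0761), and was called higher without TP-064 replicate 1 (0.18, adjusted p = 0.00864). NDUFV3, NDUFA5, NDUFA7 and NDUFA13 were also not called, and NDUFA7 and NDUFA13 had low counts, with means of 22.4 and 145 in TP-064 samples and 29.7 and 131 in DMSO samples. At the weak end of the calls, NDUFB10 counted 4001, 4267 and 3901 in TP-064 samples and 4379, 4330 and 4379 in DMSO samples (log2 fold change -0.11, adjusted p = 0.026). NDUFA11 counted 851, 747 and 731 in TP-064 samples and 893, 874 and 829 in DMSO samples, and its groups overlapped (-0.16, adjusted p = 0.0391). These calls were lost in some of the fits that left a library out, each with fewer samples. That of NDUFB10 was lost on leaving out any library but TP-064 replicate 2 (limma adjusted p from 0.053 to 0.103), and that of NDUFA11 without TP-064 replicate 2, TP-064 replicate 3, DMSO replicate 1 or DMSO replicate 2 (0.0957 to 0.137). The call of NDUFB8 was lost without TP-064 replicate 1, DMSO replicate 1 or DMSO replicate 2 (0.0509 to 0.162), and that of NDUFC2 without TP-064 replicate 1 or DMSO replicate 3 (0.0745 and 0.0606).

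**Figure D3:**
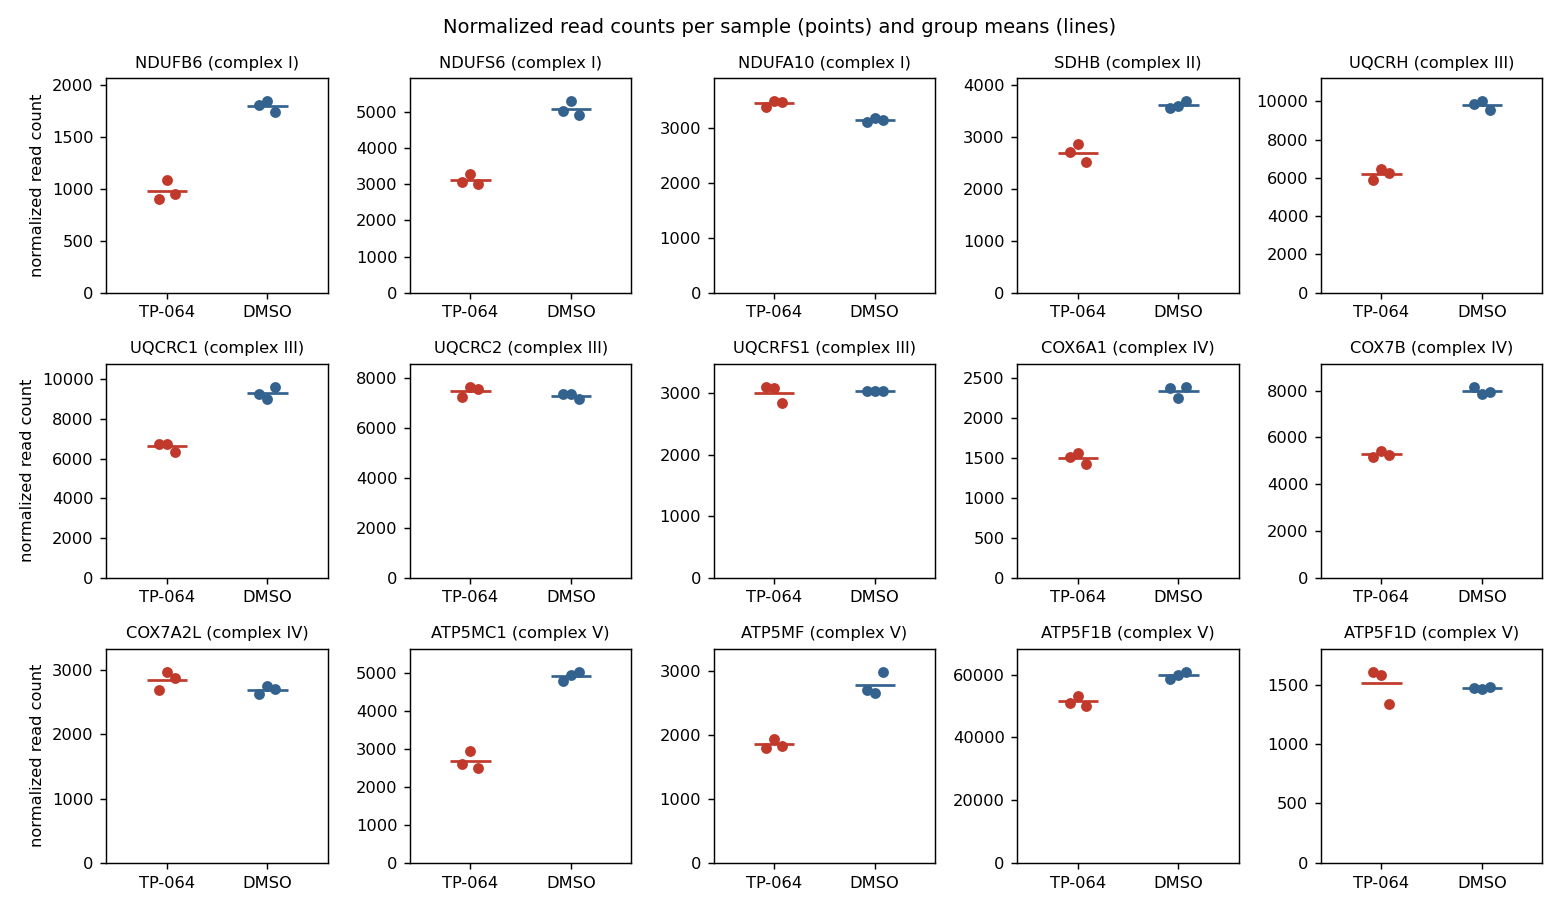
Normalized read count of 15 members in each sample (points, TP-064 red and left, DMSO blue and right) with group means (lines). NDUFB6 and ATP5MC1 show wide gaps between groups, while UQCRC2, UQCRFS1, COX7A2L and ATP5F1D overlap and NDUFA10 is slightly higher in TP-064 samples.

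Complex II, succinate dehydrogenase, is the enzyme shared by the citrate cycle and the respiratory chain, and all 4 of its genes were called lower, with a median log2 fold change of -0.26. SDHB, its iron-sulphur subunit, counted 2722, 2863 and 2516 in TP-064 samples and 3563, 3603 and 3692 in DMSO samples. All TP-064 values were lower (log2 fold change -0.42, SE 0.05, limma adjusted p = 9.24e-07). SDHD, a membrane anchor, counted 947, 1142 and 1045 in TP-064 samples and 1336, 1362 and 1258 in DMSO samples (-0.34, adjusted p = 0.000231). SDHA, the flavoprotein that oxidizes succinate, counted 7221, 7271 and 6896 in TP-064 samples and 8216, 7838 and 8289 in DMSO samples (-0.19, adjusted p = 0.000341). These groups also did not overlap. SDHC, the other anchor, did overlap, at 2651, 2643 and 2953 in TP-064 samples and 2920, 3063 and 3051 in DMSO samples (-0.13, adjusted p = 0.02), and its call was lost without TP-064 replicate 1, TP-064 replicate 2, DMSO replicate 2 or DMSO replicate 3 (adjusted p from 0.0642 to 0.082). With scaling to total reads only SDHB and SDHD were called lower.

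Complex III, the cytochrome bc1 complex, was split. Of its 8 tested members 5 were called lower and 3 were not called, with a median log2 fold change of -0.23. UQCRH, the hinge protein near cytochrome c1, counted 5910, 6444 and 6239 in TP-064 samples and 9850, 9999 and 9568 in DMSO samples. The groups lay far apart (log2 fold change -0.66, SE 0.04, limma adjusted p = 7.37e-10). UQCR10 and UQCRQ, other small subunits, counted 1857 to 2098 and 2559 to 2918 in TP-064 samples and 2455 to 2608 and 3363 to 3485 in DMSO samples, with log2 fold changes of -0.38 and -0.35. UQCRB, which helps to form the ubiquinone site, counted 6639, 6930 and 7124 in TP-064 samples and 7412, 7465 and 7234 in DMSO samples (-0.10, adjusted p = 0.0284), a call lost without TP-064 replicate 1, DMSO replicate 1 or DMSO replicate 2 (adjusted p from 0.0887 to 0.113).

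Both core proteins of complex III form its matrix-side base, yet they moved unequally. UQCRC1 counted 6757, 6744 and 6355 in TP-064 samples and 9254, 9014 and 9627 in DMSO samples (log2 fold change -0.49, SE 0.04, limma adjusted p = 2.19e-08). UQCRC2 counted 7252, 7669 and 7555 in TP-064 samples and 7369, 7384 and 7167 in DMSO samples, with overlapping groups (0.04, adjusted p = 0.381). UQCRFS1, the Rieske iron-sulphur protein that carries electrons to cytochrome c1, counted 3106, 3076 and 2832 in TP-064 samples and 3037, 3036 and 3035 in DMSO samples. Its TP-064 values lay on both sides of the DMSO values (-0.02, adjusted p = 0.753). With scaling to total reads UQCRC2 and UQCRFS1 were called higher, at 0.16 and 0.11. UQCR11, a small subunit, was also not called (adjusted p = 0.99). UQCRHL, an intronless relative of UQCRH, was listed at 2.97 to 8.74 counts in TP-064 samples and 1.04 to 6.49 in DMSO samples and was not tested.

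Complex IV, cytochrome c oxidase, had the lowest median of the 5 complexes, -0.38, with 12 of 14 tested members called lower and 2 not called. Its 11 widely expressed nuclear subunits were all called lower, and in each of them every TP-064 value lay below every DMSO value. COX6A1 counted 1510, 1567 and 1428 in TP-064 samples and 2374, 2258 and 2398 in DMSO samples (log2 fold change -0.64, SE 0.05, limma adjusted p = 9.1e-09). COX8A counted 2204, 2526 and 2309 in TP-064 samples and 3534, 3740 and 3684 in DMSO samples (-0.64, adjusted p = 1.7e-08). COX7B counted 5144, 5428 and 5258 in TP-064 samples and 8177, 7872 and 7958 in DMSO samples (-0.60, adjusted p = 8.24e-10). In these 3 small subunits of the outer shell the groups were clearly separate. COX5A, a subunit on the matrix side, had a log2 fold change of -0.51, COX5B, a zinc-binding subunit, -0.31, and COX4I1, the usual form of the largest nuclear subunit, -0.30. COX6C counted 7251 to 8395 in TP-064 samples and 8896 to 10024 in DMSO samples (-0.27). COX6B1 counted 5437, 5902 and 5229 in TP-064 samples and 6080, 6212 and 6212 in DMSO samples, the smallest fall of the 11 (-0.16, adjusted p = 0.00364).

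Several complex IV subunits come in isoforms from separate genes. Of the tissue-specific forms COX4I2, COX6A2, COX7A1, COX7B2 and COX8C carry symbols that fit the patterns. They were not found among the listed genes and so were not analysed here. COX6B2, a form known from testis, was near the filter at 14.0, 11.9 and 22.3 counts in TP-064 samples and 12.5, 15.9 and 22.7 in DMSO samples and was not called. NDUFA4L2, known as a hypoxia-induced relative of NDUFA4, counted 60.3, 76.2 and 61.9 in TP-064 samples and 130, 114 and 122 in DMSO samples. The groups did not overlap (log2 fold change -0.88, SE 0.14, limma adjusted p = 6.4e-05). Its exons touch those of SHMT2, a far more abundant gene on the other strand, which counted 14384, 16042 and 13904 in TP-064 samples and 25599, 26410 and 26489 in DMSO samples (-0.83), and the part of SHMT2 reads in the NDUFA4L2 count was not tested. NDUFA4 itself counted 7291, 7998 and 7569 in TP-064 samples and 10219, 10358 and 9656 in DMSO samples (-0.40). COX7A2L, an isoform-like protein that joins complexes III and IV into supercomplexes, counted 2695, 2975 and 2869 in TP-064 samples and 2620, 2747 and 2698 in DMSO samples, with overlapping groups (0.08, adjusted p = 0.11). COX7A2, the subunit it resembles, had a log2 fold change of -0.42. Within a sample, the ratio of COX7A2 to COX7A2L counts was therefore 0.641 ± 0.0247 in TP-064 samples and 0.910 ± 0.0287 in DMSO samples (SD, n = 3 each). An exact permutation test of that ratio, a pair chosen with earlier results known, gave p = 0.1, two-sided, the smallest that 3 samples against 3 allow. COX7A2L was called higher without TP-064 replicate 1 (0.12, adjusted p = 0.0231) and with TMM factors (0.11, adjusted p = 0.0299).

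Complex V, the ATP synthase, had 18 of 19 tested members called lower and 1 not called, with a median log2 fold change of -0.34. The c ring, the rotor that the proton flow turns, consists of 1 protein coded by 3 genes that differ in the import signal that is cut off. ATP5MC1 (chromosome 17, 48892765 to 48895871, plus strand, hg38) counted 2614, 2940 and 2491 in TP-064 samples and 4794, 4957 and 5032 in DMSO samples. Every TP-064 value was well below every DMSO value, and the mean fell by 45.6% (log2 fold change -0.88, SE 0.05, limma adjusted p = 9.63e-10). ATP5MC2 counted 12388, 13773 and 12583 in TP-064 samples and 16859, 18201 and 17692 in DMSO samples (-0.45). ATP5MC3 counted 5165, 5732 and 5132 in TP-064 samples and 7388, 7887 and 7756 in DMSO samples (-0.52). All 3 genes fell, ATP5MC1 by the most. Per exonic length, ATP5MC1 gave 20.5%, 20.7% and 19.6% of the c subunit counts in TP-064 samples and 25.7%, 24.9% and 25.7% in DMSO samples. ATP5MC2 gave 63.8%, 63.7% and 64.8% in TP-064 samples and 59.1%, 59.9% and 59.1% in DMSO samples. The share of ATP5MC3 was 15.6% to 15.7% in TP-064 samples and 15.2% to 15.3% in DMSO samples.

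**Figure D4:**
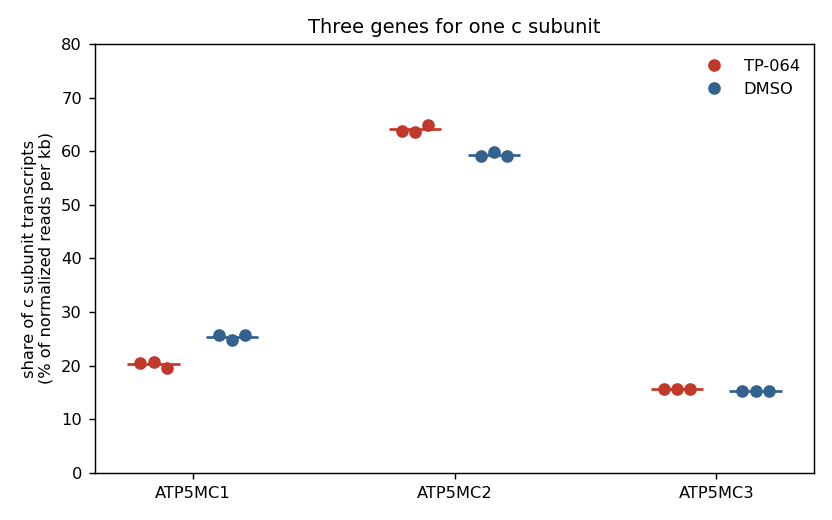
Share of the length-scaled c subunit counts from ATP5MC1, ATP5MC2 and ATP5MC3 in each TP-064 (red) and DMSO (blue) sample (points) with group means (lines), in percent. ATP5MC1 makes up 19.6% to 20.7% in TP-064 samples and 24.9% to 25.7% in DMSO samples.

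Subunits that hold the ATP synthase together in the membrane also fell. All 5 supernumerary membrane subunits were called lower (median -0.44), led by ATP5MF at 1795, 1947 and 1825 counts in TP-064 samples and 2707, 2661 and 2993 in DMSO samples (log2 fold change -0.59, limma adjusted p = 7e-08). All 4 peripheral stalk genes, which keep the head from turning with the rotor, were called lower (median -0.34), led by ATP5PF, coupling factor 6, at 2336, 2441 and 2389 counts in TP-064 samples and 3624, 3409 and 3437 in DMSO samples (-0.55, adjusted p = 9.55e-09). In both genes the groups were far apart. ATP5IF1, the inhibitor that blocks the synthase from running backwards, counted 1095, 1187 and 1011 in TP-064 samples and 1533, 1503 and 1551 in DMSO samples (-0.48).

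The F1 sector, the catalytic head with its central stalk, had a median of -0.16 over its 5 genes, the one nearest 0 among the parts of complex V. ATP5F1B, the catalytic beta subunit, had the highest count per exonic length of all members, 22189 per kb in TP-064 samples and 25807 per kb in DMSO samples. It counted 51104, 53380 and 50082 in TP-064 samples and 58765, 60020 and 60988 in DMSO samples (log2 fold change -0.22, SE 0.04, limma adjusted p = 0.000116). ATP5F1A, the alpha subunit, counted 36512, 38920 and 37400 in TP-064 samples and 40262, 41480 and 41165 in DMSO samples (-0.12, adjusted p = 0.00742). Both were lower in every TP-064 sample, but with scaling to total reads ATP5F1A stood at 0.00 and was not called (adjusted p = 0.977). ATP5F1E, the epsilon subunit of the central stalk, counted 10766 to 11616 in TP-064 samples and 12153 to 12541 in DMSO samples (-0.16). ATP5F1D, the delta subunit beside it, counted 1608, 1584 and 1338 in TP-064 samples and 1473, 1464 and 1475 in DMSO samples (0.03, adjusted p = 0.654). Here the result rests on TP-064 replicate 3, the library that stood apart: without it ATP5F1D was called higher (0.12, adjusted p = 0.0365). ATP5MGL, a gene resembling ATP5MG, was listed at 2.97 to 10.2 counts in TP-064 samples and 1.08 to 7.27 in DMSO samples and was not tested.

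**Figure D5:**
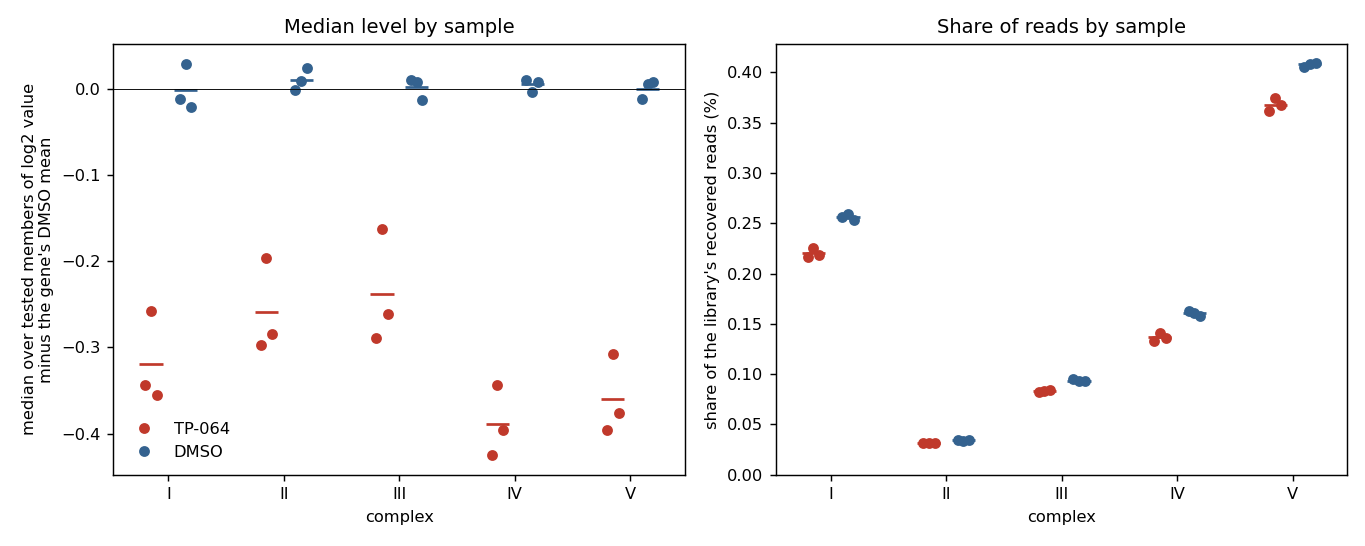
By complex, for each TP-064 sample (red) and DMSO sample (blue) with group means (lines): left, the median over tested members of the log2 value minus the gene's DMSO mean; right, the share of the library's reads in percent. TP-064 points lie below DMSO points for each complex in both panels, and in complex V the share is 0.362% to 0.374% in TP-064 samples and 0.406% to 0.409% in DMSO samples.

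Some members share sequence with other genes. Exons of 30 of the 83 members overlap, on the other strand, those of another gene in the table, and 29 of these members were called lower, with a median of -0.34. Of the 51 tested members without such an overlap 39 were called lower, with the same median of -0.34. One such partner, BRAF, lies opposite NDUFB2 and moved the other way, at 4964, 4769 and 4984 counts in TP-064 samples and 2891, 3018 and 2922 in DMSO samples (log2 fold change 0.74), while NDUFB2 had a log2 fold change of -0.41. ATP5ME, a membrane subunit, shares 61.6% of its exonic length with MYL5, which counted 372, 431 and 437 in TP-064 samples and 187, 174 and 182 in DMSO samples (1.19), while ATP5ME had a log2 fold change of -0.27. ATP5PF shares 23.1% of its exonic length with GABPA and JAM2, and GABPA counted 3095, 3392 and 3469 in TP-064 samples and 4053, 4192 and 3917 in DMSO samples (-0.29). Overlaps on the same strand also occur. Among them, exons of NDUFA13 overlap those of YJEFN3 and AC011448.1, and exons of NDUFB2 overlap those of ADCK2. Exons of NDUFC1 overlap those of MGARP, and exons of NDUFS3 those of PTPMT1. What same-strand overlap does to the counts of these members was not tested. Pseudogenes, with which reads can be shared, are named after 45 members, of which 41 were called lower (median -0.34). Of the 36 tested members without one 27 were called lower (median -0.34). ATP5MC1 has 7 such pseudogenes, UQCRH 4 and ATP5MF 5, and NDUFB6, UQCRC1 and SDHB have 0. The names come from the annotation, and a named pseudogene need not be among the listed genes. None of the 4 of UQCRH was listed, while 2 of the 3 of SDHA were.

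Other genes of the mitochondrial energy pathway were read from lists in the same fit. For comparison, 39.3% of protein-coding genes were called lower and 34.3% higher. In the class above of high count and short exonic length these shares were 59.5% and 22%. Called lower were 88.2% of the citrate cycle and pyruvate dehydrogenase list, 72.7% of protein import and 66.7% of mitochondrial genome expression. Whether these lists differ from genes of like level and length was not tested. Of 17 tested citrate cycle and pyruvate dehydrogenase genes 15 were called lower and 0 higher (median log2 fold change -0.30). FH, fumarase, the enzyme that follows succinate dehydrogenase, counted 6846, 7277 and 6793 in TP-064 samples and 11876, 12216 and 11806 in DMSO samples (-0.78), and IDH3A, a subunit of the isocitrate dehydrogenase that makes NADH, had a log2 fold change of -0.62. Of 22 mitochondrial protein import genes 16 were lower and 0 higher (-0.29), led by TIMM10, a chaperone of the intermembrane space, at -1.04, and TOMM40, the outer membrane channel, at -0.81. Of 15 genes that transcribe, package or maintain mitochondrial RNA and DNA 10 were lower and 1 higher (-0.20). TFAM, which packages mitochondrial DNA, was at -0.72 and SLIRP, which stabilizes mitochondrial RNA, at -0.69. MTERF1, a mitochondrial transcription termination factor, was higher at 0.19. With scaling to total reads the medians were -0.18 for the citrate cycle list, -0.17 for import and -0.07 for mitochondrial genome expression.

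The assembly factors, which build the complexes but are not part of them, showed a mixed picture. Of 48 tested 22 were lower and 11 higher, or 45.8% and 22.9%, where 39.3% of protein-coding genes were lower and 34.3% higher. Their median was -0.11, which became 0.01 with scaling to total reads. CMC2 and COX17, both needed for cytochrome c oxidase, had log2 fold changes of -0.91 and -0.89. COA5, another cytochrome c oxidase assembly factor, counted 1091, 1197 and 1154 in TP-064 samples and 598, 625 and 634 in DMSO samples (0.89), and ATPAF2, which helps to assemble the F1 head, had a log2 fold change of 0.56. Of 16 further subunits, electron carriers and ubiquinone synthesis genes outside the symbol patterns 10 were lower and 3 higher, or 62.5% and 18.8%. Their median was -0.40, and -0.28 with scaling to total reads. PDSS1, which makes the ubiquinone side chain, counted 190, 197 and 169 in TP-064 samples and 430, 451 and 433 in DMSO samples (-1.24), and CYB5B, an outer membrane cytochrome b5, had a log2 fold change of -0.74. COQ4 and COQ9, also of ubiquinone synthesis, were called higher, at 0.40 and 0.36. CYC1, a complex III subunit whose symbol lies outside the patterns, was called lower (-0.40, limma adjusted p = 1.66e-06).

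Among 11 nuclear regulators of respiratory genes 7 were called lower and 1 higher, or 63.6% and 9.09%. Of protein-coding genes 39.3% were called lower and 34.3% higher. The regulators' median log2 fold change was -0.26, and -0.14 with scaling to total reads. NRF1, whose letters were searched in the promoters above, counted 1143, 1107 and 1095 in TP-064 samples and 2124, 2060 and 1949 in DMSO samples. All TP-064 values were far below the DMSO values (log2 fold change -0.87, SE 0.05, limma adjusted p = 2.69e-10). SP1, a broadly acting factor, had a log2 fold change of -0.49. ESRRA, a nuclear receptor that binds respiratory gene promoters, went the other way, at 4501, 4536 and 4354 counts in TP-064 samples and 3024, 3092 and 3228 in DMSO samples (0.52, adjusted p = 1.16e-08). Any link between these regulators and the subunits was not tested.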

How the data were processed

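PolyA RNA was sequenced from 6 Toledo samples, 3 with 5 uM TP-064 and 3 with DMSO, with a stranded kit, per the labels' protocols. The submitters' processing notes name TopHat2 2.0.10, HTSeq 0.6.0, DESeq 1.18.0 and hg38. The annotation and the strand setting were not given in the sources used here. The deposited values are a size-factor normalized signal, reads per gene divided by the library's size factor by the authors. All values came out as whole reads (tolerance 0.001). The size step was near 1 in TP-064 replicate 2 and DMSO replicate 2, so there this check says little. Of the 18278 rows 18214 matched GENCODE 29 by identifier, and 0 columns were left unused.

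Tests used limma 3.58.1 (trend; R 4.3.3) on log2(value + 1) for genes with a mean of at least 10, which understates the changes of low genes. Residual degrees of freedom were 4, and p-values were adjusted over all genes tested. Alternatives were other scalings, filters, pseudocounts and thresholds, edgeR 4.0.16 and DESeq2 1.42.0 on recovered reads, a replicate block and single libraries left out. The members and lists were chosen with earlier results of these data known. Values per sample were given for up to 3 called members at each end of the fold changes of each complex, for core subunits, often as the fold change alone, for isoform sets, and for others named beside them after their values were seen. From the other lists, up to 2 called genes with the smallest p in each direction were named. CYC1 and GABPA were named besides, as a complex III subunit and an overlap partner. Replicate numbers did not pair the samples. Replicates differed by more than sampling noise (chi-square per degree of freedom 3.21 to 8.10), and none was counted as a duplicate. Printed promoter sequences are RefSeq's. The values of 1 complex I gene, which is included in the counts and medians, are not reported here.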

Additional observations from a re-analysis of the deposited data

How the results depend on the processing

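Same-numbered samples deviated together with correlations of -0.0859, 0.0659 and -0.0793, and a replicate block left 68 members lower and 1 higher. Against a 1.2-fold null, 5592 genes were called, and 34 members lower and 0 higher (complex I 13 lower and 0 higher, II 1 lower, III 3 lower, V 9 lower). Members called higher numbered 4 with TMM or edgeR (3 in complex I, 1 in IV), 8 with library size scaling (4 in I, 2 in III, 1 in IV, 1 in V), and 1 to 3 with 1 library left out (1 to 2 in I, 0 to 1 in IV and in V). Library size scaling left 2 members of complex II lower and gave medians of -0.22 (I), -0.14 (II), -0.10 (III), -0.26 (IV) and -0.22 (V), and it reversed NDUFB10 (0.017), UQCRB (0.027) and UQCRFS1 (0.11). With 1 library left out, medians ran from -0.30 to -0.23 (II), -0.41 to -0.35 (IV) and -0.38 to -0.32 (V). Without a low-value filter the complex III median was -0.10.

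Leaving members out lowers counts by construction. Without those overlapping an opposite-strand exon, 39 were lower (I 14, III 3, V 9), with medians of -0.19 (II) and -0.40 (V). Without those with a named pseudogene, 27 were lower (I 15, II 1, III 3, IV 2, V 6), with medians of -0.42 (II) and -0.37 (III). Across all fits, 34 members were called lower in every one and 57 in every one but the 1.2-fold null. Other causes of these shifts were not tested. Counts limit precision most for NDUFA7, COX6B2, NDUFA4L2 and NDUFA13.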
